A study of Mus musculus with 16 samples.

Results

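The promoters of 34 genes for blood coagulation and complement proteins were examined in Promoter Capture Hi-C (Promoter-CHi-C) lists from mouse liver. The 34 genes were fixed by name. Each was placed on the HindIII fragment that held its gene start (GENCODE vM1, mm9), and its interactions were all pairs of the lists with an end on that fragment when the fragment served as a bait, that is, when its interactions were captured. Of the 34 genes, 31 started on a bait, each on a bait of its own, out of 15107 baits with the start of a protein-coding gene and 18165 baits in all. These 31 baits took part in 599 distinct interactions of 247177. F5, Kng1 and C4b started on no bait of the lists, and the nearest bait lay 32.3, 8.79 and 48.9 kb away. Livers came from wild-type male C57BL/6 mice, given as 8 weeks old. By the study's methods, mice of that age were kept for 2 weeks in 12 h light and 12 h dark with food at all times. Livers were taken at lights on (ZT0), at lights off (ZT12) and midway between these (ZT6 and ZT18). For every timepoint 3 pools of 2 livers were made, 1 of them sequenced on 2 lanes, and the authors deposited 1 merged list per timepoint. The lists held 146262, 154775, 151529 and 151347 interactions with a CHiCAGO score of at least 5. The order is ZT0, ZT6, ZT12, ZT18, kept in all series of numbers below. A higher score means stronger evidence that the ligation reads exceed those expected from the distance and the fragments alone. It is not a measure of contact frequency, and sequencing depth was not compared between the lists. With 1 list per timepoint there was no replicate, so that no difference between timepoints could be tested, and the 95% Wilson intervals below cover counting error only. Whole liver was used, and interactions of hepatocytes and of other liver cells cannot be told apart.

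Most clotting and complement proteins of the blood are made by hepatocytes and secreted as inactive precursors. In coagulation, serine proteases activate each other in turn until thrombin cleaves fibrinogen to fibrin, antithrombin and the protein C system hold this back, and plasmin dissolves the clot. Complement is set off by antibodies, by mannose-binding lectins or on any surface, meets at the cleavage of C3, and ends in a pore built from its late components. In Promoter-CHi-C, fragments close to each other in the nucleus are ligated and the ligation products that hold a promoter are pulled out, so that a listed interaction joins a promoter fragment to another fragment, its other end.

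Letters of the promoters were compared first. A half-site of the hepatocyte factor HNF1, searched as GTTAATNAT on both strands, lay in the 250 bases before the gene start in 4 of the 31 promoters (12.9%, interval 5.13-28.9%) and in 0.647% of 16859 protein-coding promoters on baits. Its holders were F13b, Fga, Hc and Plg. In all of them the match lay close to the gene start, at bases -54 to -46 in F13b, -51 to -43 in Hc, -48 to -40 in Plg and -46 to -38 in Fga. These windows are shown because they carry that match, with every match to a searched motif in capitals, 5′ to 3′ on the strand of the gene (mm9, chr1:141398034-141398283 plus, chr2:34916959-34917208 minus, chr17:12571225-12571474 plus and chr3:82829825-82830074 plus). The D-box match of F13b at -102 to -95, the TATA match of Hc at -213 to -208 and the C/EBP match of Fga at -135 to -128 are in capitals too.
F13b: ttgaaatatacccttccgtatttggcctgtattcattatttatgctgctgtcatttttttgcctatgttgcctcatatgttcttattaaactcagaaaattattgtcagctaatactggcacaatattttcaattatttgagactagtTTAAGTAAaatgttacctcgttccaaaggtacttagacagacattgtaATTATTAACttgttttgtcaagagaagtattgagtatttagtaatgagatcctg
Hc: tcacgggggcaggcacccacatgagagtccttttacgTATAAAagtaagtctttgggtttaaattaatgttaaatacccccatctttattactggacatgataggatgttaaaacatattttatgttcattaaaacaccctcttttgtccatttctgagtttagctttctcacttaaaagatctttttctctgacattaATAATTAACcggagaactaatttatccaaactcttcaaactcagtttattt
Plg: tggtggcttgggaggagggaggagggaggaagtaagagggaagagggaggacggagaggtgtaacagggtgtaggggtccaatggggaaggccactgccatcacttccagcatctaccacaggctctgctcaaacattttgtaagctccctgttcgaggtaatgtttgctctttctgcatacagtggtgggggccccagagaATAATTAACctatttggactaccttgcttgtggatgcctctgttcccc
Fga: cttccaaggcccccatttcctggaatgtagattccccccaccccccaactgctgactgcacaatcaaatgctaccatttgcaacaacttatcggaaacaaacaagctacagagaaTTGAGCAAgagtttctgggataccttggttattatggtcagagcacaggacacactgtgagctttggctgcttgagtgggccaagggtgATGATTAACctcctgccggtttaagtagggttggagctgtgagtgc

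The remaining motifs were met in fewer or more of the promoters. C/EBP (TTGCNNAA) matched 6 of 31 promoters, or 19.4% (9.19-36.3%) against 8.43% of all, namely C3, C9, F11, Fga, Fgb and Serpinc1. A nuclear receptor half-site (AGGTCA) matched 9 (29.0%, 16.1-46.6%) against 12.1%, namely C3, C8b, Cfb, F10, F2, F7, Masp1, Mbl2 and Serpinf2. The D-box TTANGTAA matched Cfb and F13b (6.45% against 1.82%), and TATAAA matched Hc alone (3.23% against 10.3%). No promoter held the E-box CACGTG or the HNF4 letters CAAAGTCCA, which 7.19% and 0.386% of all promoters held. With 31 promoters, a count of 0 allows a share of up to 11.03% (Wilson). A match is a description of letters and not of binding.

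Taken over all 31 promoters, interactions were short and often present through the day. A promoter had a median of 17 distinct interactions (quartiles 6.5 and 29, range 1 to 72), against a median of 9 (4 and 21) over all protein-coding baits, and 21 of 31 promoters (67.7%) had at least 10 interactions against 49.95%. Bait fragments were of like length, with medians of 5667 and 5969 bp. All 599 interactions joined fragments of the same chromosome. Their median distance was 81.0 kb against 162 kb over all interactions. The share over 150 kb was 33.2% (29.6-37.1%) against 53.3%, and the share under 25 kb was 12.5% (10.1-15.4%) against 6.58%. Both ends were baits in 128 interactions (21.4%, 18.3-24.8%) against 15.4%. Of 605 contacts counted per promoter, 240 ended on a fragment with an exon, 129 on a gene start, 111 within an intron and 125 on a fragment without a protein-coding gene. Other ends often adjoined each other: 74.2% of these contacts lay in a run of at least 2 neighbouring fragments, against 66.0% over protein-coding baits, and the 605 contacts made up 264 separate stretches.

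**Figure D1:**
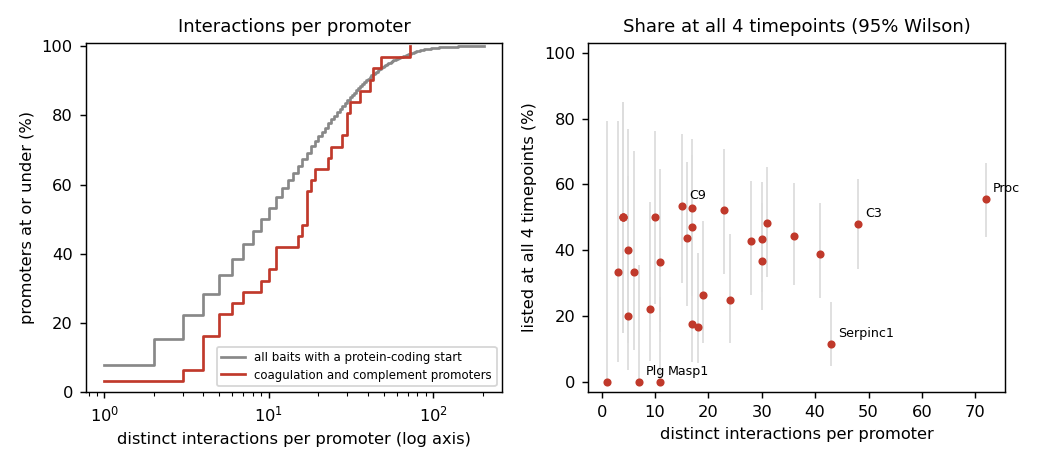
Left, the share of promoters (%) with at most the number of distinct interactions on the log axis, for the 31 promoters (red) and for all 15107 protein-coding baits (grey). Right, for each of the 31 promoters the share of its interactions (%) listed at all 4 timepoints against its number of interactions, with 95% Wilson intervals. The red curve lies to the right of the grey curve up to 42 interactions, by little from 31 on. Serpinc1, with 43 interactions and 11.6% at all 4 timepoints, stands below promoters with similar numbers.

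Per timepoint the 31 promoters had 355, 391, 428 and 387 interactions. At all 4 timepoints 230 of the 599 were listed (38.4%, 34.6-42.4%), against 32.5% of all interactions, and 180 were listed at 1 timepoint only (30.1%, 26.5-33.8%) against 35.2%. Distance went along with this difference. Up to 150 kb the share at all 4 timepoints was 45.0% (40.2-49.9%) against 41.0%, and over 150 kb it was 25.1% (19.6-31.6%) against 24.995%. Interactions with a bait at both ends were listed at all 4 timepoints in 48.4% (40.0-57.0%) against 37.0%. When only scores of at least 10 were counted, the order turned, with 31.8% of 151 interactions at all 4 timepoints against 34.6% of all. When another other end of the same promoter within 10 kb was accepted as the same contact, the shares were 72.8% and 72.4%.

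Fibrinogen showed the strongest interactions of the set. Fga, Fgb and Fgg code for the chains of fibrinogen, the precursor of fibrin, and start within 41.9 kb of each other on chromosome 3. Fgb starts on the minus strand and the other two on the plus strand. Fgg had 19, 23, 21 and 24 interactions, Fgb had 24, 21, 21 and 19, and Fga had 14, 15, 13 and 13. All 3 promoters interacted with each other at all 4 timepoints. The Fgb and Fgg promoters, 43.1 kb apart by fragment midpoints, scored 34.34, 29.91, 36.52 and 40.78, and only 0.305% of the ZT18 list scored higher than the last of these. Fga and Fgg scored 13.43, 11.91, 16.13 and 19.72, and Fga and Fgb 7.93, 8.94, 8.25 and 10.48. In each of the 3 pairs the highest score was that of ZT18.

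The windows before the Fgb and Fgg starts complete the cluster (mm9, chr3:82853726-82853975 minus and chr3:82811531-82811780 plus). Fgb held a C/EBP match at -140 to -133, a few bases from the position of the C/EBP match of Fga shown above, and Fgg held none of the searched motifs. The third sequence is the middle of the fragment chr3:82808982-82809737, about 2.5 kb from the Fgg bait, which was in contact with all 3 promoters and held no protein-coding gene (chr3:82809210-82809509, plus strand).
Fgb: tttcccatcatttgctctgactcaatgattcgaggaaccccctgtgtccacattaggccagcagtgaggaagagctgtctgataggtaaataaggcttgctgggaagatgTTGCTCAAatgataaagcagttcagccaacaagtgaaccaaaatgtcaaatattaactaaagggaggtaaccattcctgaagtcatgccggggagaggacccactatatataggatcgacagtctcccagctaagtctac
Fgg: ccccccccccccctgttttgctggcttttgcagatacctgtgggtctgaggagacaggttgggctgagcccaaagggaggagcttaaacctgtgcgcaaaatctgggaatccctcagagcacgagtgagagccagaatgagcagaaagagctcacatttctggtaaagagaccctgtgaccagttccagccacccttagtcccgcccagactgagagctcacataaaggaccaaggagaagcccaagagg
Shared fragment: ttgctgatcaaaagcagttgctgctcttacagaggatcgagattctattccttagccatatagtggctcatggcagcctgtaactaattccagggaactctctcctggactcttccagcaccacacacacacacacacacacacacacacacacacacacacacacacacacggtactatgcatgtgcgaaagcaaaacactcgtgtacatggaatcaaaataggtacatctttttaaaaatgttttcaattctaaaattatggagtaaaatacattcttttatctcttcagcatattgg

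This fragment scored 33.69, 34.94, 29.38 and 29.62 with Fgb and 14.32, 14.4, 11.51 and 15.15 with Fga. With Fgg, the nearest of the 3 promoters, it was listed at ZT18 only, at 8.89. In all, 8 other ends were shared by the 3 promoters. Fgb and Fgg shared 14, which was 45.2% of the other ends of Fgb and 46.7% of those of Fgg, and Fga shared 76.5% of its 17 with Fgb and 70.6% with Fgg.

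Far from the cluster, about 1 Mb away, all 3 fibrinogen promoters reached the same block. It lies around the bait chr3:81777237-81787616, which holds the starts of Tdo2, the liver enzyme that opens the ring of tryptophan, and of Accn5. Fgg had 8 interactions there, Fgb 9 and Fga 3. The strongest joined Fgg to the adjoining fragment chr3:81787617-81793767, within Accn5, at 1021 kb, with scores of 9.09, 15.31, 17.75 and 17.76. Fgb and the Tdo2 bait scored 9.09, 8, 8.84 and 13.31, and Fgg and the Tdo2 bait 8.1, 14.58, 14.78 and 11.81. Fga was listed with the Tdo2 bait at ZT12 only, at 9.53. Together with Plrg1, the neighbour of Fgb, and with 11 fragments of the cluster that held no gene start, 36 pairs joined the 2 blocks, 15, 23, 25 and 9 of them per timepoint and 5 at all 4 timepoints. The Tdo2 bait itself had 7, 24, 18 and 8 interactions, and 15 of its 29 ended in the fibrinogen cluster. Scores in this block came in steps: the fragments without a gene start scored 5.3 to 5.38, 7.18 to 7.25 or 9.12 to 9.22 with the Tdo2 bait at ZT6, and 4 of the 15 pairs at ZT0 had the same score of 9.09. The reads behind each pair were not used here.

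**Figure D2:**
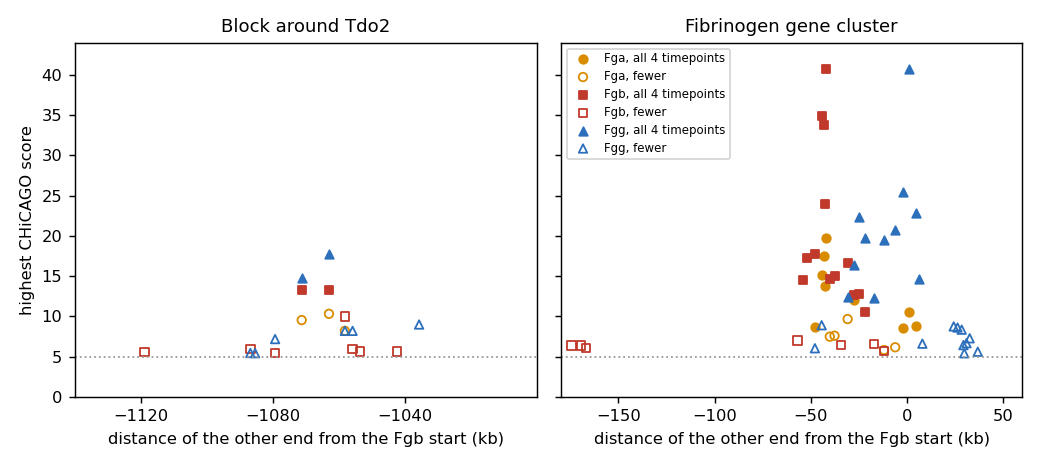
Highest CHiCAGO score of each interaction of Fga, Fgb and Fgg against the distance of its other end from the Fgb start (kb), for the block around Tdo2 (left) and the gene cluster (right). Filled symbols were listed at all 4 timepoints, open symbols at fewer, the dotted line is the score of 5, and 2 Fgb interactions at 689 and 695.9 kb lie outside both panels. The pair Fgb and Fgg stands at 40.78 in both series, and 4 of the 20 interactions with the far block are filled.

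**Figure D3:**
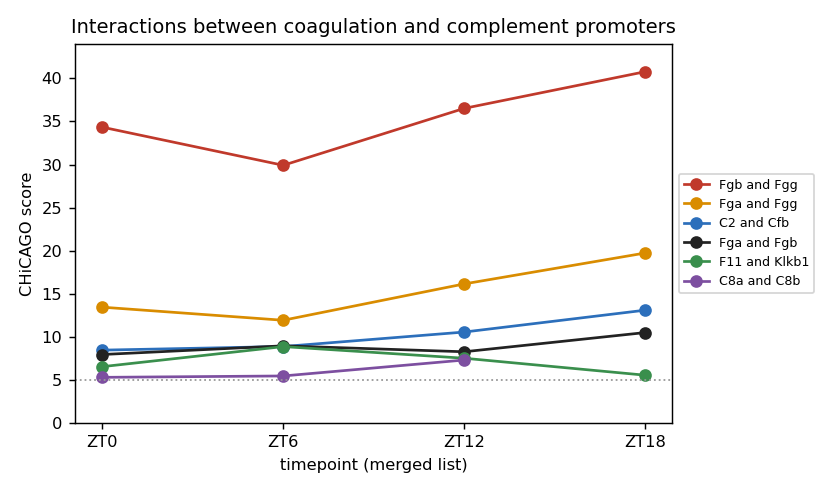
CHiCAGO scores of the 6 listed interactions between 2 of the 31 promoters at each timepoint, with the score of 5 dotted. Fgb and Fgg lie between 29.91 and 40.78 and all the other pairs under 20, and C8a and C8b have no value at ZT18.

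Of the 7 pairs of promoters on baits whose genes start within 1 Mb of each other, 6 were listed. These 7 pairs start only 11.3 to 110 kb apart. The share listed among all bait pairs at such distances was not computed, so that the count is a description only. Beside the fibrinogen pairs, Cfb and C2 scored 8.44, 8.86, 10.54 and 13.08 over 37.2 kb, F11 and Klkb1 6.52, 8.85, 7.5 and 5.53 over 55.0 kb, and C8a and C8b 5.28, 5.44 and 7.29 over 114 kb with no entry at ZT18. The pair not listed was F7 and F10, whose bait fragments adjoin, and no pair of adjoining fragments occurs among the 247177 interactions. Instead both reached the same other ends. All 4 other ends of F10 were among the 10 of F7 (40.0%).

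The 7 promoters of clotting enzymes and cofactors had a median of 10 interactions, close to that of all protein-coding baits, and F2, F10 and F13b had 4 or 5 each. Coagulation factor VII (F7), which starts clotting with tissue factor, had 6, 7, 9 and 9 interactions, and factor X (F10), which converts prothrombin, had 3, 4, 2 and 2. Both interacted with the start of Proz, the gene of the vitamin K-dependent protein Z and their neighbour on chromosome 8. F7 and Proz scored 12.98, 13.6, 18.92 and 19.05, and F10 and Proz 5.61, 7.01, 9.36 and 7.24. The strongest interaction of F10 lay beyond Proz, on exons of Pcid2, at 10.5, 12.69, 14.57 and 9.78. The last of the 4 F10 contacts, on Proz exons, was listed at ZT6 only, at 5.01, and its contact with the Adprhl1 start scored 5.22 at ZT0 and 5 at ZT6.

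Prothrombin (F2) had 2, 2, 3 and 2 interactions. Of its 5 contacts, only that with the Pacsin3 start, 379 kb away, was listed throughout, at 7.42, 5.88, 8.89 and 6.14. Its highest score joined it to the Arfgap2 start at 371 kb, at 6.17 at ZT12 and 10.98 at ZT18. F13b, the carrier subunit of the fibrin cross-linking factor XIII, had 2, 2, 3 and 3 interactions and only 4 in all. Those with the starts of Aspm (9.85, 8.16, 12.41 and 13.32, at 50.9 kb) and Zbtb41 (8.63, 8.24, 9.93 and 9.36) were listed at every timepoint. A contact within Cfhr2 was listed at ZT18 only, at 5.31.

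Contact-phase genes had more. Factor XII (F12), which starts the contact pathway, had 21, 20, 19 and 19 interactions, 25 of its 30 upstream, and its strongest lay 47.9 kb away on exons of Dbn1 and Prr7 at 22.23, 23.91, 24.71 and 21.99. F11 had 11, 11, 15 and 11, and plasma prekallikrein (Klkb1) had 9, 11, 18 and 9. Their genes are neighbours of like sequence and origin on chromosome 8. Both promoters had their highest score with the start of Mtnr1a, a melatonin receptor gene: 12.38, 17.86, 18.17 and 21.24 for F11 at 190.0 kb, and 9.62, 7.02, 8.54 and 8.09 for Klkb1 at 244.9 kb. They shared 7 other ends, 41.2% of those of F11 and 36.8% of those of Klkb1.

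The highest number of interactions was that of an anticoagulant gene. Proc, the gene of protein C, had 50, 48, 64 and 55 interactions and 72 in all, more than 97.7% of protein-coding baits had. Of these, 40 were listed at all 4 timepoints (55.6%, 44.1-66.5%), 24 reached a score of 10, and 23 spanned over 150 kb. They fell on both sides, 43 upstream and 29 downstream. The strongest joined Proc to the start of Sft2d3 at 224.3 kb, at 18.97, 15.29, 26.08 and 16.93, and the next to the start of Lims2 at 206.6 kb, at 13.13, 17.07, 20.13 and 24.3. Runs of 16 adjoining fragments over Sft2d3 and Lims2 and of 15 and 11 upstream, over Map3k2 and Ercc3, made up most of the total. Without Proc, the share of interactions at all 4 timepoints over the other promoters was 36.1%.

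Serpinc1, the gene of antithrombin, had the largest difference between timepoints in the number of interactions. In fold, Plg differed more, with 1 to 5 interactions per timepoint, and Masp1 had none at ZT6. Serpinc1 had 9 interactions at ZT0 and 11 at ZT18, against 31 and 28 at ZT6 and ZT12, with 43 in all. Only 5 were listed at all 4 timepoints (11.6%, 5.07-24.5%), and 29 were listed at neither ZT0 nor ZT18, 8 of them at both ZT6 and ZT12, 12 at ZT6 only and 9 at ZT12 only. These 29 were weak: none reached a score of 10, the highest was 8.62 and 17 stayed under 6. With other ends within 10 kb taken as the same contact, 16 of the 43 were present at all 4 timepoints. The 5 interactions that reached a score of 10 were each listed at 3 or 4 timepoints, but all of them scored highest at ZT6 or ZT12. Among these, the start of Zbtb37 scored 8.59 at ZT6, 10.99 at ZT12 and 8.21 at ZT18, with no entry at ZT0. Fragments within Serpinc1 itself, 8.755 and 5.423 kb away, scored 9.02, 11.37, 11.74 and 10.09, and 9.33, 9.52, 10.77 and 8.78. The highest score of all, 13.06 at ZT6 with 7.03 at ZT12, 7.81 at ZT18 and no entry at ZT0, was that of chr1:163100617-163101610, 192.4 kb downstream and outside protein-coding genes, and the adjoining fragment with an exon of Ankrd45 scored 6.67, 13.03, 7.69 and 6.28. The middle of the first fragment (chr1:163100964-163101263, plus strand) and the window before the Serpinc1 start (chr1:162908487-162908736, plus strand) are shown as the promoter with the largest difference in number and its strongest distal contact, with a C/EBP match at -19 to -12 in capitals and no searched motif in the distal window.
Serpinc1: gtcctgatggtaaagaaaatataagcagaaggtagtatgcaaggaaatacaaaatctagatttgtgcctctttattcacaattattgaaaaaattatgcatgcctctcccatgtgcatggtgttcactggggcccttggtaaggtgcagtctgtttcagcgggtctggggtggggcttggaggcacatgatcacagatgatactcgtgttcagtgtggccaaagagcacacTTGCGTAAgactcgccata
Distal fragment: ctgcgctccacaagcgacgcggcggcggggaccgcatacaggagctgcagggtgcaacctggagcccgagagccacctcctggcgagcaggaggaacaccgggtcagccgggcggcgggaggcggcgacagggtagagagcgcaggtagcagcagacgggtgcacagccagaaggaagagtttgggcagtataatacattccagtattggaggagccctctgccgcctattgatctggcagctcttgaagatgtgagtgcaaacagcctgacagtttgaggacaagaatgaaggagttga

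Neighbouring baits were compared as well. Within 300 kb of the Serpinc1 start, 6 other protein-coding baits were listed, 2 of them with at least 10 interactions. Zbtb37 had 28, 27, 34 and 19 interactions, and Rabgap1l had 11, 11, 10 and 2. Neither was past 2-fold from ZT0 to ZT12, while Rabgap1l was past 2-fold higher at ZT6 than at ZT18, in the direction of Serpinc1. Within 300 kb of Masp1, Pros1, C8b and Klkb1, no other bait with at least 10 interactions was past 2-fold in either comparison. Of the baits with fewer, Arl13b near Pros1 (2, 6, 7 and 5) and Rtp4 near Masp1 (1, 0, 1 and 5) differed in the direction of these promoters. Stx19, also near Pros1, was not past 2-fold.

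**Figure D4:**
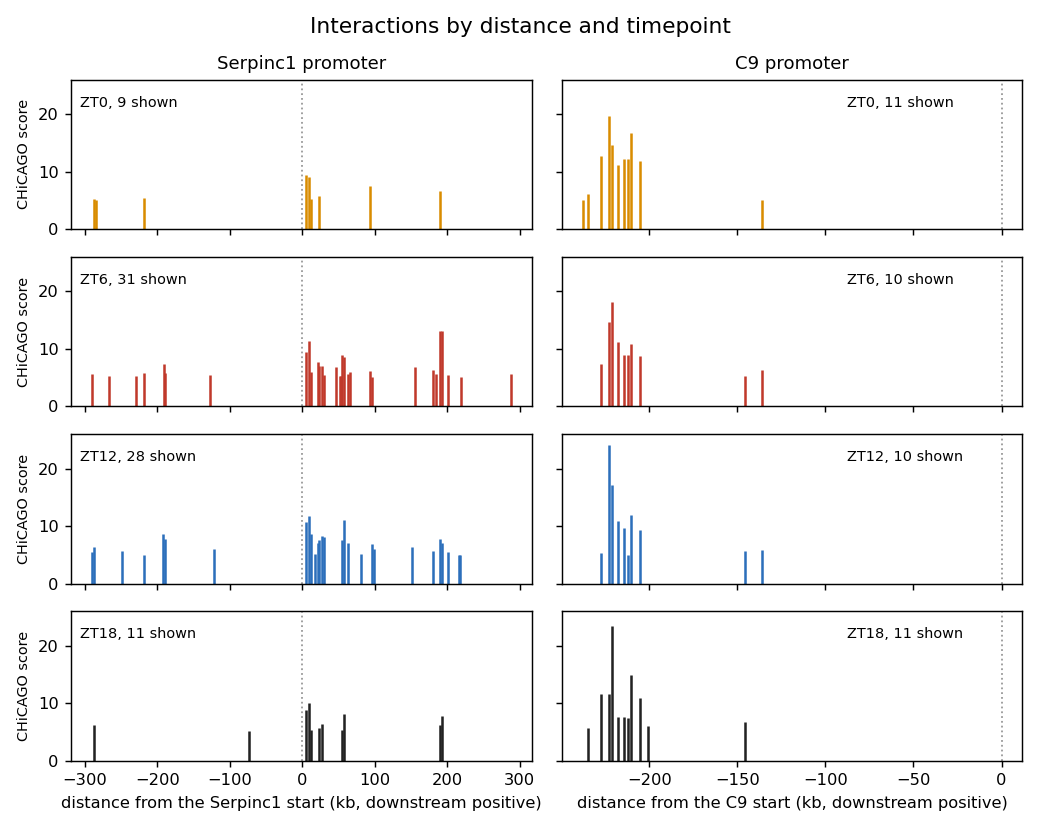
CHiCAGO score of each listed interaction against the distance of its other end from the gene start (kb), for Serpinc1 (left) and C9 (right), with the timepoints from top to bottom. Serpinc1 shows 9, 31, 28 and 11 interactions on both sides of the start, and C9 shows 10 or 11 at each timepoint, all upstream, after 2 interactions beyond 300 kb were left out.

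Protein S (Pros1), the cofactor of activated protein C, had 5, 8, 14 and 8 interactions, and 3 of its 17 were listed throughout. The strongest joined it to the start of Nsun3 at 67.5 kb, at 7.59, 7.87, 11.89 and 8.41. Heparin cofactor II (Serpind1) had 1, 2, 2 and 2, and its 3 interactions were with an intron of Pi4ka at 8.515 kb (8.16 at ZT12 and 5.48 at ZT18), with the start of Ydjc at 192.4 kb (6.71, 5.22, 7.12 and 5.26), and with the start of Ppil2 at ZT6 only (7.16).

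The genes of fibrinolysis split into 1 constant and 2 sparse promoters. Serpinf2, which codes for the plasmin inhibitor, had 19, 18, 16 and 15 interactions, and 12 of its 23 were listed at all 4 timepoints (52.2%, 33.0-70.8%). Its strongest lay within its own gene (14.32, 12.48, 8.69 and 8.74 at 10.8 kb), and it interacted with its neighbour Serpinf1 at 10.29, 9.45, 8.43 and 9.4. Plasminogen (Plg) had 3, 5, 1 and 1, none of its 7 throughout, and its highest score, 6.47 at ZT6, was that of a fragment with an exon of Map3k4 at 136.1 kb. The others included an exon and an intron of Map3k4 upstream, and the starts of Acat3 (6.05 at ZT0 and 5.84 at ZT6, 563.4 kb) and Sod2 (5.78 at ZT6, 630.3 kb) downstream. Cpb2, which codes for a carboxypeptidase that slows clot lysis, had 2, 5, 3 and 3, all over 150 kb, with the Cog3 start at 513 kb listed throughout (5.58, 6.88, 7.83 and 7.83).

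Complement activation genes had a median of 30 interactions over 4 promoters. C3, the central component of all complement pathways, had 34, 29, 35 and 35 interactions and 48 in all, of which 23 were listed at all 4 timepoints (47.9%, 34.5-61.7%). In 42 of them the other end lay downstream, 32 spanned over 150 kb, and 19 ended on another bait. The highest score joined C3 to the starts of Slc25a23 and Crb3 at 171.4 kb, at 22.49, 11.94, 17.98 and 12.73. Fragments inside the C3 gene 21.56 and 26.78 kb away scored 13.86, 11.85, 14.48 and 18.98, and 17.53, 13.26, 13.21 and 17.89. A run of 16 adjoining fragments, 160.5 to 248.0 kb from C3, took in the starts of Slc25a23, Crb3, Khsrp, Gtf2f1 and Clpp.

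Cfb, the factor B protease of the alternative pathway, had 25, 21, 26 and 30 interactions and 36 in all, 16 of them at all 4 timepoints (44.4%, 29.5-60.4%). It lies in the gene-dense class III region of the major histocompatibility complex, and 28 of the 36 other ends lay upstream. The strongest was on exons of C2 and Zbtb12 at 33.4 kb (15.63, 15.09, 17.63 and 14.88), followed by Ehmt2 exons at 45.7 kb (10.71, 9.11, 14.06 and 15.75). The fragment with the start of C4b, another complement gene of this region, was no bait but was an other end of 5 baits. Cfb was among these, with 7.29 at ZT12 and 6.4 at ZT18 over 122.9 kb. C2, whose bait also holds the start of Ehmt2, had 8, 6, 8 and 7, its strongest on Rdbp exons at up to 17.33. Cfi, the protease that inactivates C3b and shares its bait with Gar1, had 14, 15, 13 and 12, with 6 of 24 at all 4 timepoints. It reached an intron of Pla2g12a at 53.2 kb (11.95, 6.9, 10.4 and 11.37) and the start of Ostc at 874.9 kb (6.59, 10.49, 5.69 and 6.93).

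In the lectin pathway, Masp2 had 21, 25, 22 and 34 interactions and 41 in all, 16 throughout (39.0%, 25.7-54.3%), and only 3 over 150 kb. It codes for the protease that cleaves C4 and C2 once lectins have bound sugars, and its bait of 16179 bp also holds the start of Srm. The strongest other end held exons of Exosc10 at 18.6 kb, at 17.65, 18.32, 17.3 and 17. Within the Masp2 gene and on Tardbp exons, scores were 9.19, 10.75, 10.38 and 12.44. Masp1, a related protease, had 3, 0, 7 and 6, none of its 11 throughout. Its highest score was that of an intron of Masp1 itself at 56.52 kb, at 5.84 at ZT0 and 7.89 at ZT18, and the start of the somatostatin gene Sst, at 367.9 kb, was listed at ZT12 (7.15) and ZT18 (5.72).

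Mannose-binding lectin genes each had 1 dominant partner. Mbl1 interacted with the start of Sftpa1, which codes for a lung surfactant protein of the same lectin family, at 21.92, 27.18, 32.34 and 19.54 over 19.2 kb, and 15 of its 16 contacts lay upstream. Its contact with the start of Mat1a, the liver methionine adenosyltransferase, scored 10.47, 7.91, 9.41 and 12.06. Mbl1 had 11, 11, 10 and 8 interactions and Mbl2 had 4, 5, 7 and 5. Mbl2 reached the start of Dkk1, a Wnt inhibitor, at 14.51, 12.59, 17.81 and 14.69 over 317.2 kb. Of its 9 interactions 8 fell between 300.8 and 324.9 kb, and 7 of these fragments held no protein-coding gene.

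The membrane attack genes ranged from 1 to 28 interactions. C9, which forms the ring of the pore, had 12, 12, 11 and 12 interactions, and 8 of 15 were listed throughout (53.3%, 30.1-75.2%). All 15 lay upstream, and 10 fell in a block 202.2 to 236.1 kb away without a protein-coding gene, 8 of which reached a score of 10. The highest were 19.61, 14.71, 24.16 and 11.59 at 224.3 kb, and 14.63, 18.16, 17.22 and 23.46 on the adjoining fragment at 222.3 kb. Only 4 other baits reached this block, Rpl37, Ttc33, Prkaa1 and Ptger4, with 6 pairs, none listed at all 4 timepoints and none above 7.74. The middle of the fragment chr15:6171873-6172527 is shown as the strongest distal contact of a membrane attack gene (mm9, chr15:6172051-6172350, plus strand), and it held none of the searched motifs.
C9 distal fragment: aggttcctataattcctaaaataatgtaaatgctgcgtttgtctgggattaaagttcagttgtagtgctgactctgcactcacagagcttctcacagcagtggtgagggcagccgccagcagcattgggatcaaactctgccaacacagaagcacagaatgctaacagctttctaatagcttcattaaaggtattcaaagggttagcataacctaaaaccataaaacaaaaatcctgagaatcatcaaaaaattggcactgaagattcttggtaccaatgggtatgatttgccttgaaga

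C8a and C8b code for the subunits that anchor the pore and lie side by side on chromosome 4. C8b had 8, 14, 16 and 9 interactions, 3 of 18 throughout, and its strongest ended in an intron of C8a (7.51, 7.46, 12.08 and 9.04 at 109.9 kb). C8a had 3, 4, 3 and 2, on adjoining fragments with exons of Dab1 (7.38, 10.05, 6.71 and 6.12, and 7.05, 8.63, 5.7 and 5.09), on the C8b start, and in a C8b intron at ZT6 only (6.2). C8g, the third subunit, on another chromosome and on a bait with Fbxw5, had 16, 17, 20 and 22, with Abca2 as its strongest partner (10.07, 11.33, 19.9 and 16.61 at 69.6 kb). Hc, the gene of C5, had 2, 5, 4 and 3, with the start of Cep110 at 48.7 kb at 10.59, 10.75, 8.92 and 11.68. C6 had a single interaction, on exons of Plcxd3 at 154.1 kb at ZT18, with a score of 5.41.

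**Figure D5:**
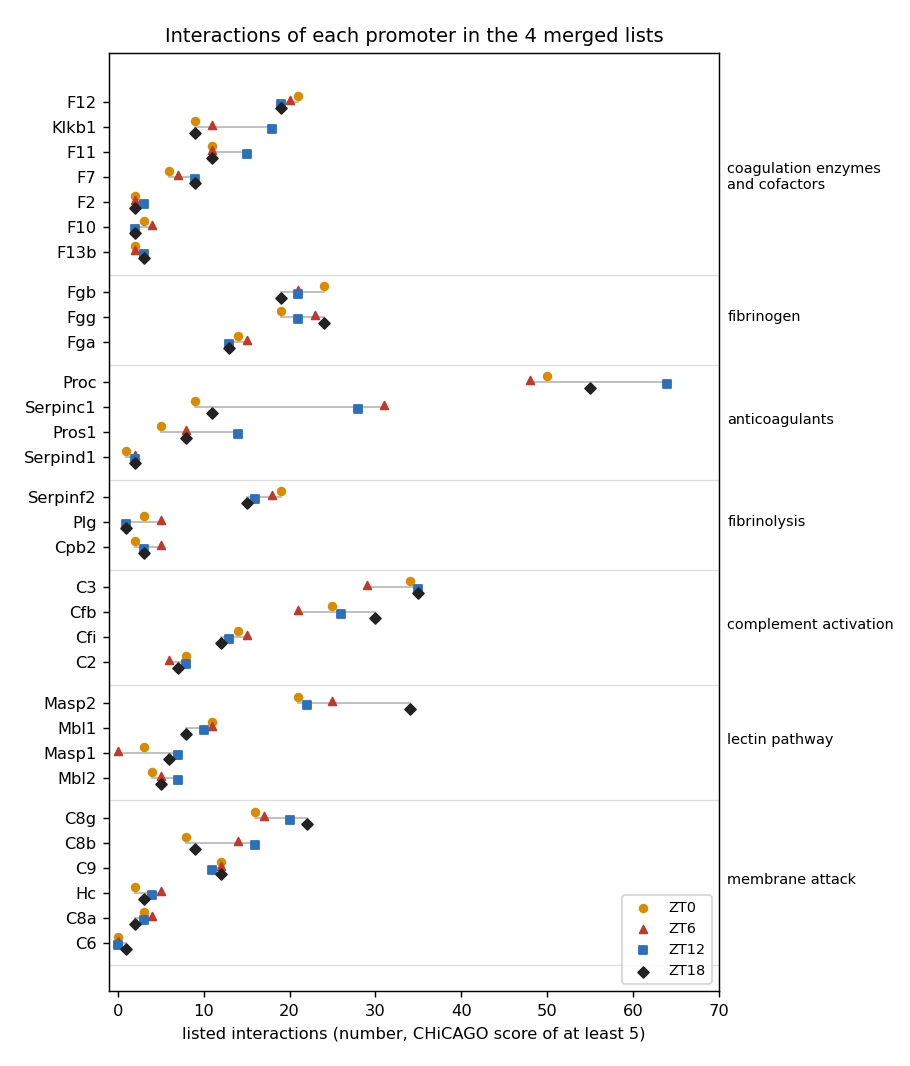
Number of listed interactions (CHiCAGO score of at least 5) of each of the 31 promoters per timepoint, grouped by role, with a grey line from the lowest to the highest timepoint. Proc lies at 48 to 64, Serpinc1 separates into 9 and 11 against 28 and 31, and most of the others lie within a few interactions of each other.

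Across the day the promoters did not share a timepoint. After division by the list totals, 7 promoters (22.6%) had their highest number at ZT0 and 8 (25.8%) at each of the other timepoints. Over all protein-coding baits the shares were 31.1%, 20.4%, 21.4% and 27.2%. Ties in raw number, for example in C9, F7, F13b and Serpind1, were settled by the list totals alone. No minimum number was required for this count, and C6 had a single interaction. Among the 21 promoters with at least 10 interactions, 3 had at least 2-fold more at ZT12 than at ZT0 (14.3%, against 3.91% of 7546 baits), namely Pros1, Serpinc1 and Masp1, and none had at least 2-fold more at ZT0 (against 4.17%). From ZT6 to ZT18, Serpinc1 was at least 2-fold higher at ZT6 (4.76%, against 3.31%) and Masp1 at least 2-fold higher at ZT18 (4.76%, against 4.48%). With 1 list per timepoint these calls have no replicate check. Few interactions of these promoters reached a score of 10, namely 3 of 17 for Pros1, 5 of 43 for Serpinc1 and 0 of 11 for Masp1, so that no call could be made for them at that score. The summary given with the study assigns the list totals of ZT6, ZT12 and ZT18 to other timepoints than the labels do. In that order the list with 28 Serpinc1 interactions is that of ZT6, the list with 31 that of ZT18 and the list with 11 that of ZT12. Scores move with their lists, so that the highest scores of the 3 fibrinogen pairs fall at ZT12. In the same order no promoter was past 2-fold between ZT0 and ZT12, and Serpinc1 was no longer past 2-fold between ZT6 and ZT18. Masp1 turned to at least 2-fold higher at ZT6 than at ZT18.

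Beyond the 34 genes, 46 other genes of clotting, fibrinolysis and complement were looked up, and 39 of them started on a bait, on 36 fragments. Their median was 13 interactions. A median of 33.3% was listed at all 4 timepoints, against 40.0% over the 31 promoters and 24.0% over all protein-coding baits. Among baits with at least 10 interactions these medians were 42.9%, 43.3% and 30.0%. The other genes and the promoters of the set were thus close among such baits, but not over all their baits. Of the 22 other genes with at least 10 interactions, 1 was past 2-fold. It was Tfpi, the inhibitor of tissue factor, with more at ZT0 than at ZT12. In that direction 4.17% of all protein-coding baits with at least 10 interactions were past 2-fold. For ZT12 over ZT0, ZT6 over ZT18 and ZT18 over ZT6, 0 of the other genes were, against 3.91%, 3.31% and 4.48%. C1ra and C1rb share a bait, so that the 22 genes stood on 21 fragments. The highest numbers were those of Apcs (76), the serum amyloid P component, F3 (75), which codes for tissue factor, and Plaur (62), the urokinase receptor. Hrg, a plasma protein that binds heparin and plasminogen, had 27 of 36 interactions at all 4 timepoints. Proz was the only one of the 46 genes whose start was listed with that of a gene of the set, through F7 and F10.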

How the data were processed

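Promoter-CHi-C libraries of mouse liver had been read by HiCUP on mm9 and scored by CHiCAGO, whose versions are not given in the sources used here. The authors merged the pools of each timepoint and deposited 1 list per timepoint with the bait, the other end and the CHiCAGO score (at least 5). Reads per pair were not used here. Each list was assigned to its timepoint by the sample labels. A pair listed in either order was counted once, and distances ran between fragment midpoints. Gene starts and exons came from GENCODE vM1 and sequences from the mm9 genome. All 129885 listed fragments were bounded by HindIII sites on both sides. Members, gene lists, motifs and comparisons were chosen with earlier results of these data known. By rule every member was named with its contact of the highest score, and the promoters with the 5 highest and the 5 lowest numbers of interactions were to be described in full. For the 5 highest, the strongest contacts and counts stand for the rest. Shares carry 95% Wilson intervals, which cover counting error only. Intervals over interactions treat these as independent. Since 74.2% of the contacts lay in runs of adjoining fragments, such intervals may be too narrow. A fold call needed at least 10 interactions and 2-fold after division by list totals. One contact of F13b is not reported here. No test was made, since no timepoint had replicate lists. Alternatives were a score of 10, a bait within 5 kb, any transcript start, 1 promoter per 1 Mb, a tolerance of 10 kb, lists of equal length, gaps in place of midpoints, raw numbers, the order of list totals in the study's summary, and a window of 1000 bases, and later, after the data were seen, promoters alone on their bait and all promoters but Proc. The measures were tested on simulated lists. Python 3.11.15 was used with pandas 2.3.3, numpy 2.4.6, scipy 1.17.1 and matplotlib 3.10.9.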

Additional observations from a re-analysis of the deposited data

How the results depend on the processing

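With scores of at least 10, the median number of interactions per promoter was 3 (1 over all protein-coding baits), the share listed at all 4 timepoints 31.8% (34.6% of all interactions), the median distance 59.6 kb (144 kb) and the share with a bait at both ends 29.1% (20.0%). At that score 5 promoters had 10 interactions, none of them Pros1, Serpinc1 or Masp1, and 0 were past 2-fold for ZT12 over ZT0, 0 for ZT6 over ZT18 and 2, Proc and Cfb, for ZT18 over ZT6, and 4 of the 6 pairs between promoters were left. A tolerance of 10 kb gave 72.8% at all 4 timepoints. By raw numbers, with ties given to the earlier timepoint, 5 promoters had most interactions at ZT18 and 11 at ZT12. F7, F13b and Serpind1 left ZT18 only by this rule, since an earlier timepoint had the same raw number. In the order of the study's list totals, an alternative added for the fold calls after the data were seen, 0 promoters were past 2-fold for ZT12 over ZT0 and 0 for ZT18 over ZT6, and Masp1 took the place of Serpinc1 in ZT6 over ZT18. In 1000 bases before the start, the HNF1 half-site still matched 12.9% of the 31 promoters, while its share of all promoters rose to 2.53%. In that window C/EBP matched 45.2% of the 31 promoters (34.1% of all) and the E-box 16.1% (17.5%). The nuclear receptor half-site matched 58.1% (46.0%) and TATA 35.5% (41.9%). The shares of these last motifs were higher by construction of a longer window. For the remaining values the cause was not tested. Of the 35 planned values, 22 stayed within the interval or within 1.5 times the count, as did 7 of the 9 added ones. Some of these could not move. The study's order only exchanges ZT6, ZT12 and ZT18, where 8 promoters each had their highest number, so that these counts stay while the promoters behind them change. The value for a bait within 5 kb was fixed because no gene was added. No start came onto a bait within 5 kb or by another transcript start. No paired analysis was possible because each timepoint had 1 merged list, and no replicate could be left out for the same reason. A pair just under the score of 5 cannot be told from a pair without reads.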
